A study of Mus musculus with 28 samples.

Results

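The hepatokines examined here were 8 genes chosen by name as liver hormones: *Fgf21*, *Gdf15*, *Inhbe*, *Angptl4*, *Ahsg*, *Fetub*, and *Lect2*, which encode proteins that the liver secretes, and *Klb*, which encodes the co-receptor through which FGF21 acts. All 8 were among the 21935 genes of the deposited table, and all 8 were among the 12580 genes that had enough counts to be tested.

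Liver messenger RNA was sequenced in 28 male B6.V-Lepob/JRj mice, which lack leptin and become obese. All of them carried the ob mutation and arrived at 5 weeks of age. They had 14 weeks of the AMLN diet (high in fat, cholesterol, and fructose) before treatment and stayed on it during treatment. No lean or chow-fed liver thus entered the comparison. The mice then received an oral dose each day for 2 weeks, of vehicle in 10 mice, of OCA at 30 mg/kg in 9 mice, and of INT-787 at 30 mg/kg in 9 mice. OCA and INT-787 derive from a bile acid and are agonists of the farnesoid X receptor (FXR), the nuclear receptor that senses bile acids, and here they were given at the same dose for the same time.

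Hepatokines are proteins through which the liver acts on other organs. FGF21 is released in fasting, in shortage of protein, and under cell stress, and it acts on fat tissue and brain through FGF receptors paired with beta-Klotho, the product of *Klb*; in hepatocytes beta-Klotho also pairs with FGFR4 to receive FGF15, the intestinal hormone that FXR induces. GDF15 is a stress cytokine that curbs food intake through a receptor in the hindbrain, and activin E, the product of *Inhbe*, restrains lipolysis in fat tissue. ANGPTL4 inhibits lipoprotein lipase, the fetuins (*Ahsg* and *Fetub*) are abundant plasma glycoproteins of the cystatin superfamily, and LECT2 is a chemotactic protein of hepatocytes that binds the receptors MET and TIE1. Transcription of *Fgf21*, *Gdf15*, and *Inhbe* is known to rise in the integrated stress response, in which ATF4 binds a short element (CARE) in target genes, and *Fgf21* and *Angptl4* are known targets of PPARα.

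The promoters of *Fgf21*, *Inhbe*, and *Gdf15* are shown because the messenger RNAs of *Inhbe* and *Gdf15* varied with that of *Fgf21* from mouse to mouse. Windows from 250 bases before to 50 bases after the start of transcription were taken from RefSeq (GRCm38.p6). It held 9 windows for 7 of the 8 members and none for *Angptl4*, which was therefore not searched. Each sequence is given 5′ to 3′ on the strand of its gene, in lower case, with motif matches in capitals. *Fgf21* lies on the minus strand, with its window at chr7:45615441-45615740, and the capitals mark a CARE at bases -139 to -132. *Inhbe* is also on the minus strand, with its window at chr10:127351799-127352098, and the capitals mark a CARE at bases -181 to -174. RefSeq starts *Inhbe* inside the gene as GENCODE M21 gives it, whose 5′ end is at 127354411, so that the window is the promoter of the RefSeq start alone. *Gdf15* has 2 windows on the minus strand, of which the first, at chr8:70632407-70632706, is shown, and the capitals mark a DR1 at bases -55 to -43 with 1 mismatch.
Fgf21: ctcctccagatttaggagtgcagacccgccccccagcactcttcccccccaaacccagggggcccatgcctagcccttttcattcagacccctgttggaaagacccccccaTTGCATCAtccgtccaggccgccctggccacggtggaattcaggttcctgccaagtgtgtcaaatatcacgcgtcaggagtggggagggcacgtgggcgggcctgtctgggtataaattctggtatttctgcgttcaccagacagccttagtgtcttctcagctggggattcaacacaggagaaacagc
Inhbe: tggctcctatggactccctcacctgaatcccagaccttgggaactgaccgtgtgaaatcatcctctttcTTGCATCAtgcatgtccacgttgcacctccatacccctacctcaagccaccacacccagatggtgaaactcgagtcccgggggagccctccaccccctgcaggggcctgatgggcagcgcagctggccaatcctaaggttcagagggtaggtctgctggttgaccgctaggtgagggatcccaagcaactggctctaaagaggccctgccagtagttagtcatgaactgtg
Gdf15: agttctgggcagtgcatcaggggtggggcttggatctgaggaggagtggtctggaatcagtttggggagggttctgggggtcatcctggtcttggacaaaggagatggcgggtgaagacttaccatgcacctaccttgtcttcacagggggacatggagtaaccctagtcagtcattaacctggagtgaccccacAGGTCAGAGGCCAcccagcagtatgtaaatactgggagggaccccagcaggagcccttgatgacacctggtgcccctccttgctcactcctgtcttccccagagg
CARE was searched as TGATGNAA on both strands, and 3.97% of the 32851 mouse promoter windows of this length held it. The match in the *Fgf21* and *Inhbe* promoters was the same 8 letters, TTGCATCA, which is the element read on the other strand. Neither window of *Gdf15* held a CARE. DR1, the type of site to which PPARα binds, was searched as AGGTCA repeated in the same direction after 1 spacer base with up to 2 mismatches, and 3.86% of all windows held it. IR1, the type of site to which FXR binds, was searched as AGGTCA and its inverted copy around 1 spacer base with up to 2 mismatches, and it was found in 1.14% of all windows and in 0 of the 9 windows of the members. These matches describe letters in the windows and do not show binding in these livers.

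Values are CPM, that is, the reads of a gene per 1000000 reads of its library with library sizes scaled by the TMM method, and for each gene they are given as mean ± SD over mice. Total counts per mouse were 1009593 to 22421506, with a median of 14864947. Behind the members' values lay between 18 counts (*Gdf15*) in vehicle replicate 6, the shallowest library, and 149093 counts (*Ahsg*) in an OCA mouse. A second library stood apart: 8 genes lying opposite a much more abundant gene summed to 1060 CPM in vehicle replicate 5 and to between 2.84 and 16.3 CPM in the other mice. Of the members, only *Ahsg* had exons overlapped on the opposite strand, by 62 bases of the predicted gene Gm30505, and the members' tests were also run without vehicle replicates 5 and 6. The 8 hepatocyte markers were all expressed, and 3 of 8 adipocyte markers, *Adipoq*, *Lep*, and *Retn*, were at 0 in every mouse. The 8 adipocyte markers, which include genes that hepatocytes also express, summed to 2322 to 3997 CPM in vehicle mice, 1854 to 3567 in OCA mice, and 1579 to 3643 in INT-787 mice. Of the 4 that were tested, 3 fell and 1 rose with INT-787, and 2 fell with OCA. Of all tested genes 9.48% fell and 10.2% rose with INT-787, and 2.45% fell with OCA, at an adjusted p of 0.05. *Car3*, a carbonic anhydrase, fell from 1924 ± 411 CPM to 895 ± 444 with OCA (adjusted p = 0.00029) and 827 ± 136 with INT-787 (adjusted p = 2.9e-05), and *Cfd*, which encodes adipsin, fell from 2.92 ± 2.28 CPM to 0.26 ± 0.302 (adjusted p = 9.4e-05) and 0.137 ± 0.174 (adjusted p = 4.6e-06); their part in the members' results was not tested. In whole liver, fewer cells of a type and less RNA per cell cannot be told apart.

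Per kilobase of exon, the scale on which genes can be set side by side, *Ahsg* was the most abundant hepatokine in the vehicle group, at 1970 ± 330 CPM per kb (SD, n = 10). *Fetub* (197 ± 67.2 CPM per kb) and *Lect2* (155 ± 51.8 CPM per kb) followed, and their ranges over the vehicle mice overlapped. *Inhbe* (23.01 ± 3.81 CPM per kb), *Angptl4* (20.5 ± 7.87 CPM per kb), *Fgf21* (10.3 ± 4.03 CPM per kb), *Gdf15* (5.98 ± 1.66 CPM per kb), and *Klb* (5.43 ± 1.22 CPM per kb) came next, and the ranges of each neighbouring pair in this order overlapped. The value of *Inhbe* rests on the GENCODE exons, and RefSeq gives a shorter gene. Ranges did not overlap between *Ahsg* and *Fetub* or between *Lect2* and *Inhbe*. The messenger RNA of fetuin-A thus stood alone at the top, and *Fgf21*, *Gdf15*, and *Klb* had the lowest means.

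*Ahsg* rose and *Gdf15* fell with OCA, and *Ahsg* and *Klb* rose with INT-787, while *Fetub*, *Inhbe*, *Angptl4*, and *Lect2* did not pass the test in any comparison. With INT-787, 2 of 8 members passed an adjusted p of 0.05 in edgeR's quasi-likelihood test, and both were higher, where 19.6% of all tested genes passed (10.2% higher and 9.48% lower). With OCA, 2 of 8 members passed, 1 higher and 1 lower, where 6.6% of all tested genes passed (4.15% higher and 2.45% lower). Between the drugs, 1 of 8 members passed, *Gdf15*, which was higher with INT-787 than with OCA, where 5.38% of all tested genes passed (2.19% higher and 3.19% lower with INT-787). The share of members that passed with INT-787 was thus close to that of all genes. Upper-quartile scaling left 0 of 8 members past the threshold with INT-787 and changed the split over all genes, from 1277 higher of 2469 to 960 higher of 2557 with INT-787, and from 522 higher of 830 to 408 higher of 780 with OCA. In no comparison did the ranges of the groups separate for any of the 8 members, where 2.66% of all tested genes had separate ranges for INT-787 and vehicle, 0.89% for OCA and vehicle, and 0.509% for INT-787 and OCA. The median log2 fold change of the 8 members was 0.12 with INT-787 and 0.16 with OCA, against -0.001 and 0.018 over all tested genes.

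**Figure D1:**
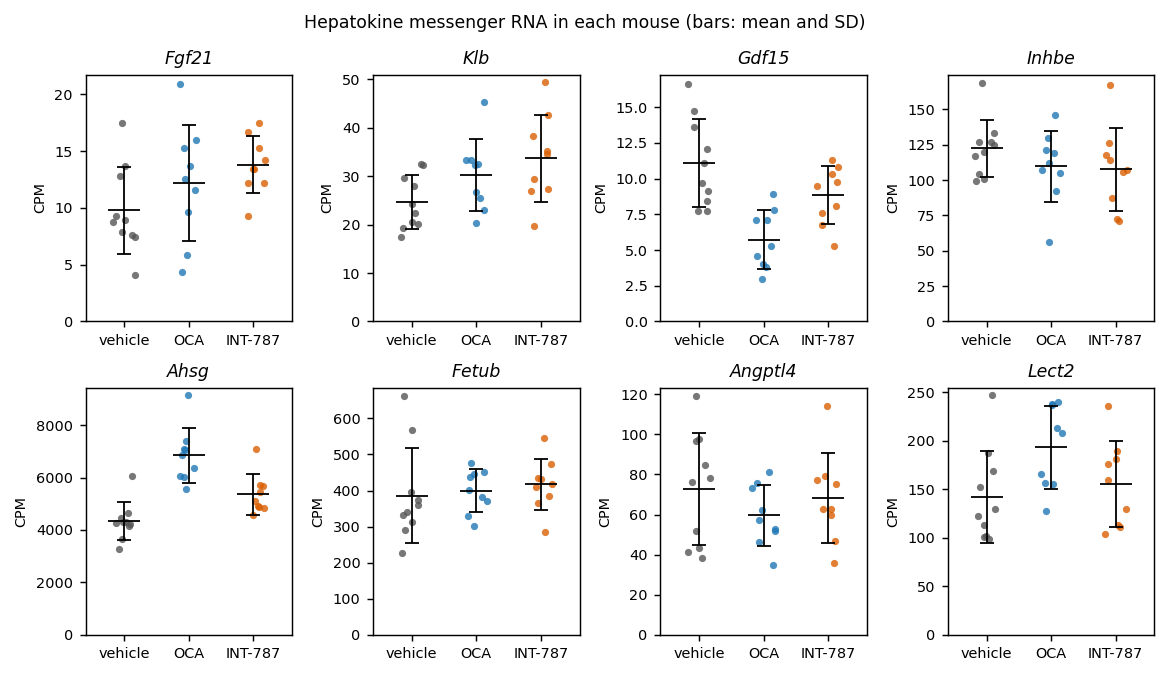
CPM (y axis, from 0) of each hepatokine in each mouse given vehicle (gray, n = 10), OCA (blue, n = 9), or INT-787 (orange, n = 9), with black bars for the mean and SD. *Gdf15* was below the vehicle mean in all OCA mice, *Ahsg* had its highest mean in OCA mice, and the points of the groups overlapped in every panel.

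**Figure D2:**
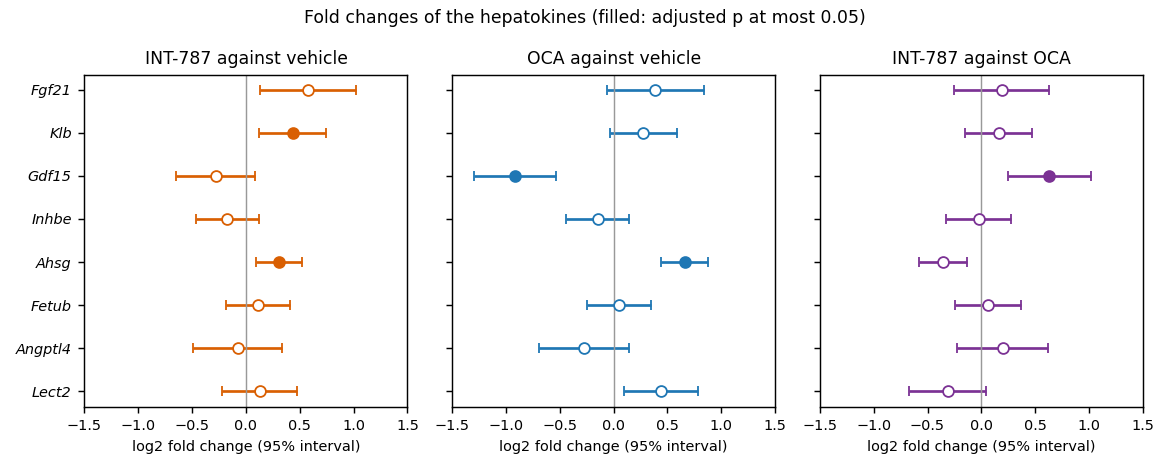
Log2 fold change (x axis) of each hepatokine with its 95% interval for each drug against vehicle (left and middle) and for INT-787 against OCA (right). Filled circles passed an adjusted p of 0.05, which *Ahsg* and *Klb* did with INT-787, *Ahsg* and *Gdf15* with OCA, and *Gdf15* between the drugs.

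*Fgf21* (ENSMUSG00000030827, chr7:45613886-45615490, minus strand) had the higher mean in both drug groups, but neither difference passed the test. Its CPM ran from 4.10 to 17.5 with a median of 8.85 in vehicle mice, from 4.36 to 20.9 with a median of 12.5 in OCA mice, and from 9.25 to 17.5 with a median of 13.4 in INT-787 mice. The highest vehicle value was that of replicate 6, the shallowest library, and rested on 19 counts. All 9 INT-787 mice were above the vehicle median, and the spread was smaller with INT-787 (CV, 18.3%) than with vehicle (39.1%) or OCA (41.9%), a difference in spread that was not tested. The fold change was 1.49 with INT-787 (log2 0.57 ± 0.22 SE; adjusted p = 0.061) and 1.31 with OCA (log2 0.39 ± 0.22; adjusted p = 0.36). The value with INT-787 lay close to the threshold, and it passed under 3 of the 12 other settings: with limma-voom (log2 0.66; adjusted p = 0.037), with 2 groups per fit (log2 0.57; adjusted p = 0.020), and with vehicle replicates 5 and 6 left out (log2 0.70; adjusted p = 0.028). It also passed when any of 7 single mice were left out (vehicle replicates 1, 5, and 6; OCA replicates 7 to 9; INT-787 replicate 1; adjusted p between 0.033 and 0.048).

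*Klb* (ENSMUSG00000029195, chr5:65348314-65384007, plus strand) rose with INT-787. Its CPM spanned a range from 17.5 to 32.6 with a median of 23.4 in vehicle mice, from 20.4 to 45.4 with a median of 32.3 in OCA mice, and from 19.7 to 49.4 with a median of 34.6 in INT-787 mice. In the INT-787 group 5 of 9 mice were above the highest vehicle mouse, and 3 of 9 were in the OCA group. *Klb* was 1.35-fold higher with INT-787 than with vehicle (95% interval 1.09 to 1.67; adjusted p = 0.042) and at 1.21-fold with OCA, which did not pass (0.974 to 1.5; adjusted p = 0.35). The call with INT-787 was lost under 5 of the 12 other settings: upper-quartile scaling (adjusted p = 0.075), at least 10 counts in every mouse (adjusted p = 0.053), limma-voom (adjusted p = 0.064), the replicate block (adjusted p = 0.086), and vehicle replicates 5 and 6 left out (log2 0.40; adjusted p = 0.091). It was also lost without any of 11 single mice (vehicle replicates 3, 4, 5, 6, 9, and 10; INT-787 replicates 1, 2, 4, 5, and 7; adjusted p between 0.058 and 0.10).

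The receptors with which beta-Klotho pairs and the genes that FGF signals switch on were examined as a list of 14 genes, of which 13 were tested. The counts for this list and those that follow stand beside the shares of all tested genes given above, 10.2% higher and 9.48% lower with INT-787 and 4.15% higher and 2.45% lower with OCA. With INT-787 2 rose and 0 fell, and the same held with OCA; the median log2 fold change of the list was 0.022 and -0.0043, close to that of all genes. They were *Spry4*, a feedback inhibitor of receptor tyrosine kinase signaling, which went from 4.43 ± 1.79 CPM in vehicle mice to 10.5 ± 2.49 with OCA (adjusted p = 0.00032) and 10.1 ± 3.64 with INT-787 (adjusted p = 0.00024), and *Fgfr2*, an FGF receptor, which went from 32.5 ± 7.46 CPM to 52.5 ± 8.83 (adjusted p = 0.00032) and 53.8 ± 10.2 (adjusted p = 6.9e-05). *Fgfr4*, the partner of beta-Klotho in hepatocytes, was at 30.2, 34.0, and 32.2 CPM in vehicle, OCA, and INT-787 mice and did not pass.

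Of 12 genes for regulators of *Fgf21* transcription, all tested, 4 rose with INT-787 and 2 with OCA, where 10.2% and 4.15% of all tested genes rose, and 0 fell. *Nr0b2*, the FXR target that encodes the repressor SHP, rose from 21.2 ± 8.59 CPM to 47.6 ± 11.4 with OCA (adjusted p = 0.0001) and 65.0 ± 14.9 with INT-787 (adjusted p = 2.0e-07). *Creb3l3*, a hepatocyte transcription factor that acts with PPARα on *Fgf21*, rose by 0.33 on the log2 scale with OCA (adjusted p = 0.025) and was called with INT-787 too (log2 0.51; adjusted p = 0.00014). *Ppargc1a*, a coactivator of fasting metabolism, rose with INT-787 (8.76 ± 3.16 to 13.4 ± 2.43 CPM; adjusted p = 0.0091). *Nr3c1*, the glucocorticoid receptor, was the remaining gene that rose with INT-787 (log2 0.27; adjusted p = 0.046), and *Ppara* itself did not pass (104, 110, and 124 CPM in vehicle, OCA, and INT-787 mice). Without vehicle replicates 5 and 6, 3 of the 12 passed with INT-787.

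*Gdf15* (ENSMUSG00000038508, chr8:70629393-70632456, minus strand) fell with OCA. Levels in CPM ran from 7.70 to 16.6 with a median of 10.4 in vehicle mice, from 2.98 to 8.93 with a median of 5.26 in OCA mice, and from 5.31 to 11.3 with a median of 9.50 in INT-787 mice. All 9 OCA mice were below the vehicle median and 7 of 9 were below the lowest vehicle mouse, whereas 3 of 9 INT-787 mice were. The mean went from 11.1 ± 3.08 CPM in vehicle mice to 5.73 ± 2.07 in OCA mice, 0.531-fold (95% interval 0.408 to 0.69; adjusted p = 0.0013), and this call held under every one of the 12 other settings and in all 28 fits that left out 1 mouse (adjusted p at most 0.0073). With INT-787 the level was 8.82 ± 2.02 CPM, and the 0.823-fold value did not pass (interval 0.637 to 1.06; adjusted p = 0.30).

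The direct comparison placed *Gdf15* 1.55-fold higher with INT-787 than with OCA (95% interval 1.19 to 2.02; adjusted p = 0.040), and 5 of 9 INT-787 mice were above the highest OCA mouse. The call was lost with blocks of adjacent sample numbers as a covariate (log2 0.55; adjusted p = 0.12), with the 2 drug groups fitted alone (log2 0.64; adjusted p = 0.060), and without any of 10 single mice (OCA replicates 1, 3, 6, 8, and 9; INT-787 replicates 1, 2, 3, 5, and 6; adjusted p between 0.050 and 0.093). Macrophages also make GDF15. Of 8 macrophage markers 0 passed with OCA, and their summed level ran from 579 to 803 CPM in vehicle mice and from 435 to 1000 CPM in OCA mice; 3 of 8 fell with INT-787, among them *Cd68* (54.0 ± 11 to 33.3 ± 6.00 CPM; adjusted p = 0.00085), and 2 of 8, *Cd68* and *Trem2*, were lower in INT-787 mice than in OCA mice. Of all tested genes 3.19% were lower in INT-787 mice than in OCA mice. The part of macrophages in the *Gdf15* levels was not tested.

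*Inhbe* (ENSMUSG00000047492, chr10:127348857-127354411, minus strand) did not pass in any comparison. Levels in CPM ran from 99.5 to 169 with a median of 123 in vehicle mice, from 56.2 to 146 with a median of 112 in OCA mice, and from 70.7 to 167 with a median of 107 in INT-787 mice. The 95% interval of its fold change was 0.736 to 1.11 with OCA and 0.723 to 1.08 with INT-787, so that both a modest fall and an unchanged level lay inside it with either drug. Between INT-787 and OCA the interval ran from 0.798 to 1.21.

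Other genes of the integrated stress response, to which *Fgf21*, *Gdf15*, and *Inhbe* are known to respond, were examined as a list of 18, of which 16 were tested. With INT-787 2 rose and 1 fell, and with OCA 3 rose and 0 fell; the list's median log2 fold change was 0.064 and 0.033. *Cth*, an enzyme that makes cysteine, went from 69.8 ± 15.5 CPM in vehicle mice to 155 ± 31.3 with OCA (adjusted p = 3.2e-06) and 233 ± 64.5 with INT-787 (adjusted p = 3.4e-10), and it was higher with INT-787 than with OCA (adjusted p = 0.018). *Asns*, asparagine synthetase, rose from 1.59 ± 0.82 to 4.39 ± 2.20 CPM with OCA (adjusted p = 0.001) and was at 2.82 CPM with INT-787 (adjusted p = 0.055). *Chac1*, which degrades glutathione, fell from 6.94 ± 2.07 to 3.62 ± 1.52 CPM with INT-787 (adjusted p = 0.0079). The remaining genes that rose were *Trib3* with INT-787 (log2 0.57, adjusted p = 0.014) and *Psat1* with OCA (log2 0.95, adjusted p = 0.016). *Ddit3* and *Atf3*, stress transcription factors, did not pass with either drug, and *Atf4* was at 34.8, 35.3, and 40.2 CPM in vehicle, OCA, and INT-787 mice.

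Among the activin and BMP ligands, receptors, and inhibitors related to *Inhbe*, 17 of 20 genes were tested. With INT-787 5 fell and 2 rose, with OCA 1 fell and 2 rose, and 4 were lower in INT-787 mice than in OCA mice, where 3.19% of all tested genes were. *Fst*, which encodes the activin trap follistatin, fell from 2.30 ± 0.579 CPM in vehicle mice to 0.567 ± 0.337 with INT-787 (adjusted p = 9.9e-06), and *Fstl3*, a related inhibitor, fell from 3.03 ± 0.86 to 1.55 ± 0.503 CPM (adjusted p = 0.0051). *Inhbc*, the neighbouring hepatocyte activin subunit, fell with INT-787 (73.7 to 45.5 CPM; adjusted p = 5.4e-05) and was at 69.9 CPM with OCA. With OCA *Gdf10*, a ligand of the BMP family, rose from 18.6 ± 2.40 to 38.0 ± 15.4 CPM (adjusted p = 6.2e-05), and *Inhbb*, the activin B subunit, fell from 7.82 ± 3.15 to 3.97 ± 1.56 CPM (adjusted p = 0.0047). Stellate cell and fibroblast markers moved beside these genes: 4 of 8 fell with INT-787, with a summed level of 453 to 1085 CPM against 1179 to 2151 CPM in vehicle mice, and their part in the result was not tested.

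*Ahsg* (ENSMUSG00000022868, chr16:22891277-22899449, plus strand), which encodes fetuin-A, rose with both drugs. Its mean was higher with OCA than with INT-787, but that difference did not pass the test. Its CPM spanned a range from 3281 to 6059 with a median of 4269 in vehicle mice, from 5574 to 9131 with a median of 6853 in OCA mice, and from 4557 to 7102 with a median of 5086 in INT-787 mice. In the OCA group 7 of 9 mice were above the highest vehicle mouse, and all 9 were above the vehicle median, as were all 9 INT-787 mice. The fold change with OCA was 1.58 (95% interval 1.36 to 1.84; adjusted p = 6.6e-05), and it was called under every one of the 12 other settings and in all 28 fits that left out 1 mouse (adjusted p at most 0.00088). With INT-787 the fold change was 1.24 (interval 1.07 to 1.44; adjusted p = 0.038), and that call was lost under 3 of the 12 other settings, which were upper-quartile scaling (adjusted p = 0.098), no filter (adjusted p = 0.054), and vehicle replicates 5 and 6 left out (adjusted p = 0.083), and without any of 11 single mice (vehicle replicates 1, 2, 3, 4, 6, 8, and 9; INT-787 replicates 3, 4, 6, and 7; adjusted p between 0.050 and 0.097). Between the drugs *Ahsg* was at 0.783-fold with INT-787 relative to OCA (interval 0.671 to 0.913), with an adjusted p of 0.051; this passed under 6 of the 12 other settings and in 6 of the 28 fits that left out 1 mouse (adjusted p between 0.021 and 0.14 over all of them).

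Of 8 hepatocyte markers, 3 rose and 0 fell with either drug, in both cases *Alb*, *Cps1*, and *Tat*, and 5 did not pass. Without vehicle replicates 5 and 6, 2 of 8 rose with OCA and 3 of 8 with INT-787. *Cps1*, the first enzyme of the urea cycle, went from 1245 ± 268 CPM in vehicle mice to 2314 ± 419 with OCA (adjusted p = 4.0e-05) and 2475 ± 555 with INT-787 (adjusted p = 2.8e-06). *Alb*, which encodes albumin, rose by 0.62 on the log2 scale with OCA (adjusted p = 0.0046) and by 0.45 with INT-787 (adjusted p = 0.025). Within each mouse the log2 level of *Ahsg* minus that of *Alb* was -4.08 ± 0.208 in vehicle mice, -4.05 ± 0.324 in OCA mice, and -4.23 ± 0.201 in INT-787 mice; this difference was chosen after the values were seen and was not tested.

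*Fetub* (ENSMUSG00000022871, chr16:22918334-22939778, plus strand), the neighbour of *Ahsg* that encodes fetuin-B, did not pass in any comparison. Levels ran from 226 to 663 with a median of 349 in vehicle mice, from 301 to 477 with a median of 401 in OCA mice, and from 286 to 547 with a median of 418 in INT-787 mice. The vehicle mice spanned the ranges of both drug groups. The interval of the fold change was 0.843 to 1.27 with OCA, and at 1.36 to 1.84 that of *Ahsg* lay above it, but the difference between the genes was not tested. The log2 CPM of *Ahsg* minus that of *Fetub*, chosen after the values were seen, was 3.54 ± 0.301 in vehicle mice, 4.10 ± 0.265 in OCA mice, and 3.69 ± 0.286 in INT-787 mice. Of 12 cystatin relatives and fetuin partners 9 were tested, with 2 higher and 2 lower with INT-787 and 1 higher with OCA. *Hrg*, histidine-rich glycoprotein, a plasma relative of the fetuins, rose from 785 ± 121 CPM to 1159 ± 331 with OCA (adjusted p = 0.0038) and 1393 ± 134 with INT-787 (adjusted p = 1.2e-05). *Cstb*, an intracellular protease inhibitor, fell from 79.3 ± 15.5 to 53.9 ± 10.5 CPM with INT-787 (adjusted p = 0.008), and *Insr*, the insulin receptor that fetuin-A inhibits, did not pass.

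*Angptl4* (ENSMUSG00000002289, chr17:33773750-33781830, minus strand) did not pass in any comparison. Its levels ran from 38.5 to 119 with a median of 77.3 in vehicle mice, from 34.9 to 81.3 with a median of 57.4 in OCA mice, and from 35.6 to 114 with a median of 62.9 in INT-787 mice. The groups overlapped over most of their range, and the interval of the fold change was wide, from 0.618 to 1.10 with OCA and from 0.71 to 1.26 with INT-787. Of the 14 genes of its family and of lipoprotein lipase metabolism, 11 were tested. *Lpl* is also among the adipocyte markers given above, and 3 of 8 macrophage markers fell with INT-787. The part of these cells in its level was not tested. With INT-787 *Lpl*, lipoprotein lipase, fell from 282 ± 76.1 to 169 ± 61.4 CPM (adjusted p = 0.0097), *Lipc*, hepatic lipase, rose from 107 ± 22.4 to 173 ± 23.5 CPM (adjusted p = 9.9e-05; 140 CPM and adjusted p = 0.054 with OCA), and *Apoa5*, an activator of lipoprotein lipase, rose (adjusted p = 0.0056). With OCA *Angptl8*, a feeding-induced relative, rose from 10.1 ± 2.81 to 17.8 ± 6.89 CPM (adjusted p = 0.034) and *Gpihbp1*, the endothelial anchor of lipoprotein lipase, fell from 16.4 ± 2.93 to 12.1 ± 2.18 CPM (adjusted p = 0.047), but 0 of the 11 passed with OCA without vehicle replicates 5 and 6.

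Some other PPARα targets fell, while neither *Angptl4* nor *Fgf21* passed with either drug. *Fgf21* had the higher mean in both drug groups, and the members were not tested against the list. Of 18 listed PPARα targets, all tested, 7 fell with OCA and 5 with INT-787, and 0 rose with either, so that most did not pass, where 2.45% and 9.48% of all tested genes fell; without vehicle replicates 5 and 6 the numbers were 6 and 4, and the list's median log2 fold change was -0.62 with OCA and -0.24 with INT-787. *Acaa1b*, a peroxisomal thiolase, fell from 1793 ± 254 CPM to 825 ± 169 with OCA (adjusted p = 1.1e-06) and to 1162 ± 333 with INT-787 (adjusted p = 0.0012), and it was higher with INT-787 than with OCA (adjusted p = 0.032). *Pdk4*, a brake on glucose oxidation, fell from 13.3 ± 5.58 to 7.19 ± 3.05 CPM with OCA (adjusted p = 0.0027). *Cidec*, a lipid droplet protein, fell from 201 ± 56.8 CPM to 114 ± 38.7 with OCA (adjusted p = 0.0047) and 114 ± 34.1 with INT-787 (adjusted p = 0.0021). *Vnn1*, pantetheinase, fell from 219 ± 21.8 CPM to 115 ± 30.7 with OCA (adjusted p = 2.9e-05) and 136 ± 35.0 with INT-787 (adjusted p = 0.00059). *Cpt1a*, which admits fatty acids to mitochondria, was at 711, 699.6, and 748 CPM in vehicle, OCA, and INT-787 mice and did not pass. Both drugs were compared with the same vehicle mice, so that their values against vehicle are not independent of each other.

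*Lect2* (ENSMUSG00000021539, chr13:56542464-56548502, minus strand) did not pass in any comparison. The CPM ran from 98.4 to 247 with a median of 126 in vehicle mice, from 128 to 240 with a median of 208 in OCA mice, and from 104 to 236 with a median of 160 in INT-787 mice. All 9 OCA mice were above the vehicle median, and the highest mouse of all was vehicle replicate 10. The fold change with OCA was 1.36 (95% interval 1.07 to 1.73; adjusted p = 0.13), and it passed under 2 of the 12 other settings, the replicate block (log2 0.55; adjusted p = 0.013) and the balance of short and long genes as a covariate (log2 0.53; adjusted p = 0.0017), and when vehicle replicate 10 was left out (log2 0.55; adjusted p = 0.033). Of 10 LECT2 receptors and partners 9 were tested. *Met*, the receptor for hepatocyte growth factor to which LECT2 binds, rose from 74.7 ± 14.8 CPM to 96.6 ± 12.9 with OCA (adjusted p = 0.022) and 101 ± 11.4 with INT-787 (adjusted p = 0.0026), and *Hgfac*, the protease that activates that growth factor, rose from 148 ± 27.3 to 195 ± 33.6 CPM with INT-787 (adjusted p = 0.019). *Tie1* and *Hgf* did not pass with either drug.

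Whether members varied together within groups was tested on log2 CPM minus the group mean, over 28 mice and 28 pairs of members. In permutations of the mice within groups, 3 of 28 pairs passed an adjusted p of 0.05. *Fgf21* and *Gdf15* were the pair with the highest correlation (Pearson r = 0.748; Spearman rho = 0.762; permutation p = 4e-05, adjusted p = 0.0011), with r = 0.749 when the 2 mice farthest from the *Fgf21* median were left out, and r stayed between 0.708 and 0.792 when each mouse in turn was. Within groups r was 0.789 in vehicle, 0.889 in OCA, and 0.219 in INT-787 mice, and the difference between these values was not tested. *Fgf21* and *Inhbe* were correlated at r = 0.54 (rho = 0.545; permutation p = 0.0027, adjusted p = 0.025; 0.617 without the 2 farthest mice), which no longer passed without vehicle replicates 5 and 6 (r = 0.539; permutation adjusted p = 0.054) or without vehicle replicate 2 or 6, OCA replicate 7, or INT-787 replicate 1 (r = 0.524, 0.486, 0.491, and 0.509; permutation adjusted p between 0.059 and 0.088). For this pair r was 0.635, 0.698, and 0.282 within vehicle, OCA, and INT-787 mice. *Klb* and *Lect2* ran opposite to each other (r = -0.663; rho = -0.65; permutation p = 0.00027, adjusted p = 0.0038; -0.611 without the 2 farthest mice), with r of -0.493, -0.691, and -0.83 within the same groups. This pair no longer passed once the balance of short and long genes in each library, described further on, was removed (r = -0.46; permutation adjusted p = 0.15). *Inhbe* and *Gdf15*, both correlated with *Fgf21*, did not pass with each other (r = 0.278; permutation adjusted p = 0.58), and within groups r was 0.334 in vehicle, 0.815 in OCA, and -0.537 in INT-787 mice, values whose difference was not tested.

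**Figure D3:**
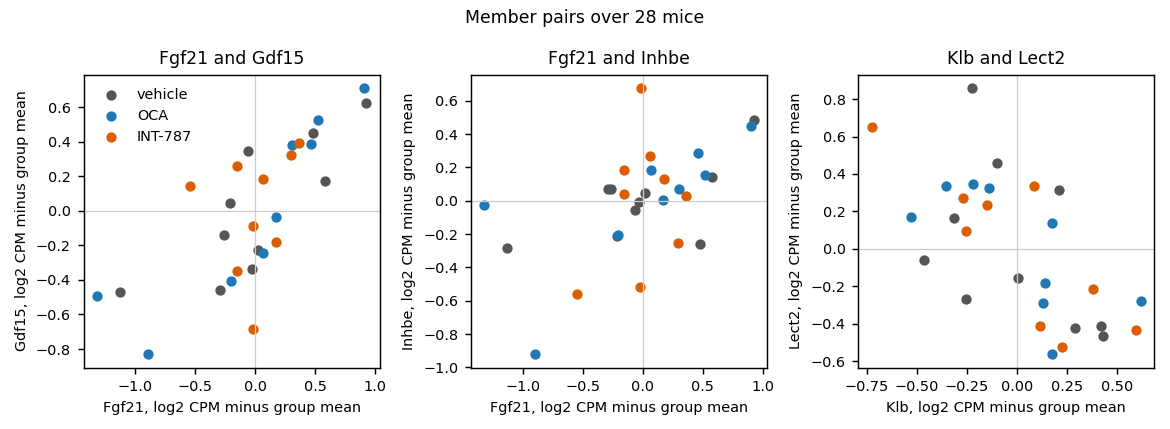
Log2 CPM minus the group mean for the 3 pairs of members that passed, with 1 point per mouse colored by group (gray, vehicle; blue, OCA; orange, INT-787). *Gdf15* and *Inhbe* rose with *Fgf21* (r = 0.748 and 0.54), and *Lect2* fell as *Klb* rose (r = -0.663; -0.46 and no longer past the threshold after the balance of short and long genes was removed).

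*Fgf21* and *Gdf15* were each other's closest match among the 9355 genes with a mean of at least 5 CPM, a description over the same 28 libraries for which no test was made. Next to *Fgf21* came *Tlr12* (r = 0.675) and *Lypla2* (r = 0.67), and next to *Gdf15* came *Nprl3* (r = 0.695) and *Serpina3n* (r = 0.69). The log2 CPM of *Fgf21* minus that of *Gdf15*, which can be compared between groups but not read as which gene was more abundant because the genes differ in length, was -0.23 ± 0.361 in vehicle mice, 1.04 ± 0.345 in OCA mice, and 0.66 ± 0.405 in INT-787 mice. It ran from -0.911 to 0.184 in vehicle mice, from 0.195 to 1.35 in OCA mice, and from -0.0381 to 1.34 in INT-787 mice. This difference was chosen after the values were seen and was not tested.

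For *Lect2* the closest matches were the ribosomal protein genes *Rpl4* (r = 0.893), *Rpl11* (r = 0.884), and *Rpl17* (r = 0.883). For *Klb* they were *Sept9* (r = 0.846), *Sh3pxd2a* (r = 0.837), and *Sgpl1* (r = 0.834). *Fetub* was closest to *Gstt1* (r = 0.924), *Uqcrc1* (r = 0.882), and *Cyp2d10* (r = 0.877), and *Ahsg* to *Yif1b* (r = 0.808), *Gulo* (r = 0.757), and *Fuca1* (r = 0.755). *Angptl4* was closest to *1810055G02Rik* (r = 0.821), *Paqr7* (r = 0.809), and *Nr1i2* (r = 0.804), and *Inhbe* to *Pnpt1* (r = 0.756), *Aldh2* (r = 0.744), and *Car5a* (r = 0.743).

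The libraries differed in how short and long genes were represented. Their balance, measured as the median log2 deviation of the 751 genes under 1500 bp of exon minus that of the 5502 genes over 5000 bp, ran from -0.57 in vehicle replicate 1 to 0.79 in vehicle replicate 10, and the group means were 0.04 (vehicle), -0.01 (OCA), and -0.03 (INT-787). Within groups this balance was correlated with *Lect2* (r = 0.779), *Fetub* (r = 0.647), *Ahsg* (r = 0.53), and *Klb* (r = -0.539), and hardly with *Fgf21* (r = 0.024), *Gdf15* (r = 0.015), *Inhbe* (r = 0.0393), or *Angptl4* (r = 0.114); these are descriptions over 28 mice. With the median log2 deviation of 72 ribosomal protein genes r was 0.733 for *Lect2*, 0.574 for *Fetub*, 0.534 for *Ahsg*, and -0.589 for *Klb*, and between -0.157 and 0.075 for the other members. After the balance was removed, *Fgf21* and *Gdf15* were at r = 0.748 and *Fgf21* and *Inhbe* at r = 0.539. With the balance as a covariate, an analysis chosen after the data were seen, the same 2 members passed with INT-787 (*Ahsg*, adjusted p = 0.0066; *Klb*, adjusted p = 0.032). With OCA *Lect2* was called in addition to *Ahsg* and *Gdf15* (log2 0.53; adjusted p = 0.0017), and *Ahsg* was called between the drugs (log2 -0.34; adjusted p = 0.021).

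**Figure D4:**
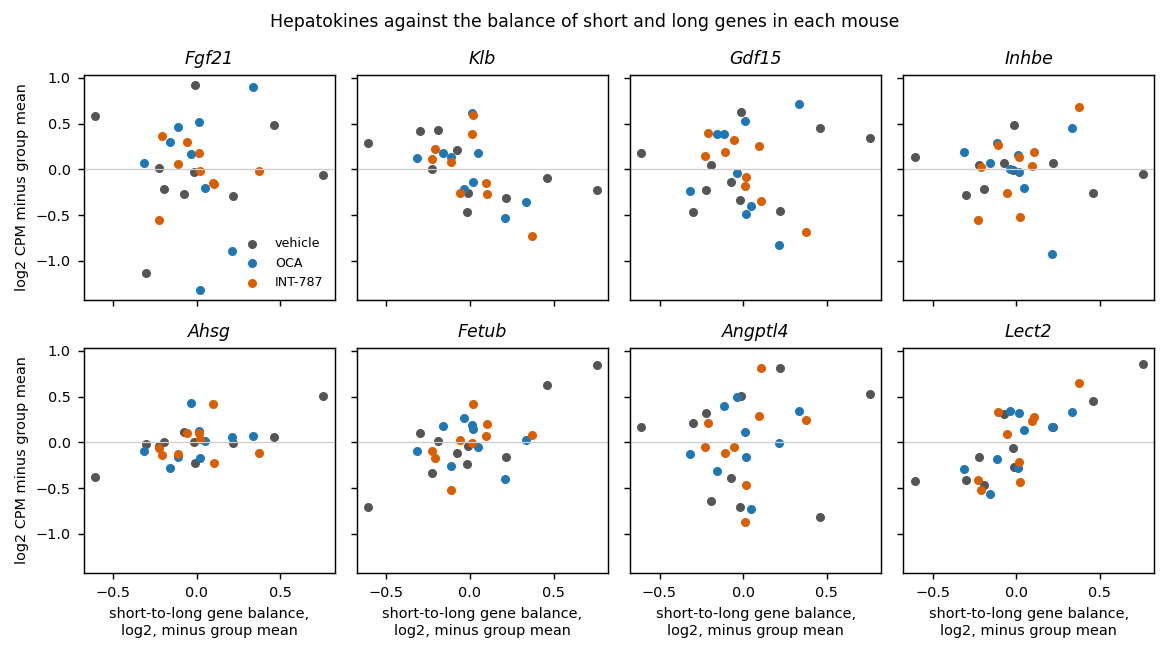
Log2 CPM of each hepatokine (y axis) against the log2 balance of short and long genes (x axis) in the same mouse, both minus the group mean, with 1 point per mouse (gray, vehicle; blue, OCA; orange, INT-787). *Lect2* and *Fetub* rose and *Klb* fell along the balance (r = 0.779, 0.647, and -0.539), while r was 0.024 for *Fgf21*, 0.015 for *Gdf15*, and 0.0393 for *Inhbe*.

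Among 24 other hormones and binding proteins that the liver secretes, all tested, 2 rose and 4 fell with INT-787, 3 rose and 0 fell with OCA, and 1 was higher and 5 were lower in INT-787 mice than in OCA mice, where 2.19% and 3.19% of all tested genes were. In the same comparison 4 of 8 stellate cell and fibroblast markers were lower with INT-787 (summed level of 453 to 1085 CPM against 1099 to 2712 CPM with OCA), as were 2 of 8 macrophage markers (373 to 773 against 435 to 1000 CPM), and their part in these results was not tested. *Fgl1*, a hepatocyte-secreted ligand of the immune receptor LAG3, fell with INT-787 from 351 ± 93.1 to 57.3 ± 25.2 CPM (adjusted p = 6.7e-12) and was at 291 ± 57.5 CPM with OCA, and the drugs differed (adjusted p = 1.0e-09). *Igfbp2*, a binding protein for insulin-like growth factors, rose from 75.6 ± 18.9 CPM to 160 ± 40.5 with OCA (adjusted p = 5.3e-05) and 284 ± 82.5 with INT-787 (adjusted p = 5.7e-10), and it was higher with INT-787 than with OCA (adjusted p = 0.0032). *Itih3*, a plasma protein that binds hyaluronan, rose with OCA from 1015 ± 119 to 1633 ± 310 CPM (adjusted p = 5.3e-05). *Gpnmb*, a glycoprotein of lipid-laden macrophages, was lower with INT-787 (80.6 ± 33.1 CPM) than with OCA (176 ± 63.3 CPM; adjusted p = 0.0033). Changes of 2 log2 units or more, as for *Fgl1*, were not seen in any hepatokine, whose log2 fold changes ran from -0.91 to 0.66. Without vehicle replicates 5 and 6, 2 of the 24 fell with INT-787.

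**Figure D5:**
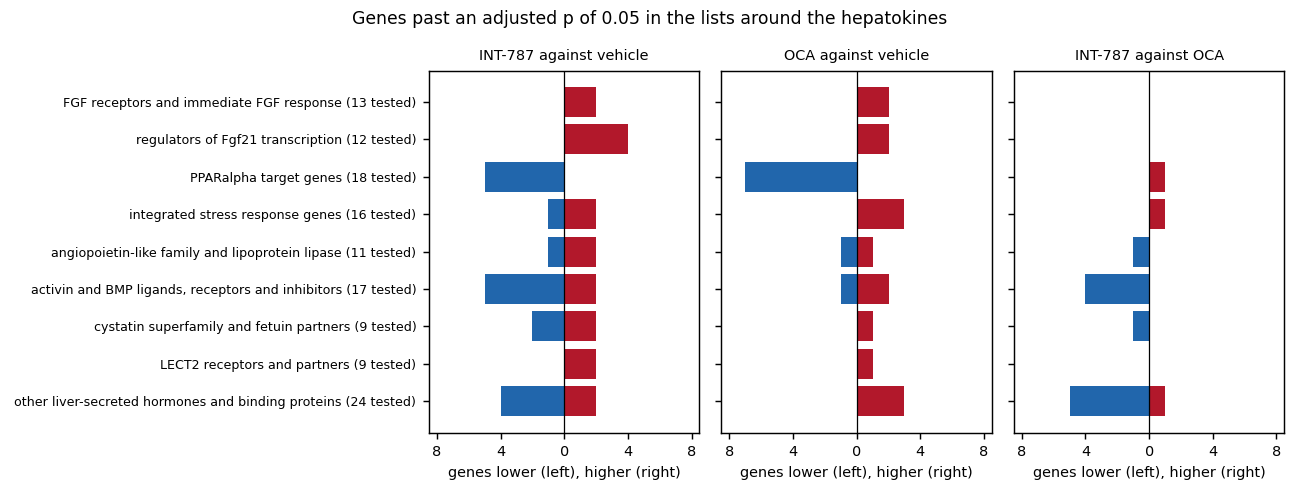
Number of genes past an adjusted p of 0.05 in each list around the hepatokines (bars; red to the right, higher; blue to the left, lower) for each drug against vehicle (left and middle) and for INT-787 against OCA (right). PPARα targets were called only as lower against vehicle (7 of 18 with OCA and 5 of 18 with INT-787), and regulators of *Fgf21* only as higher (2 and 4 of 12).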

How the data were processed

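Whole-liver RNA was sequenced from 28 mice in 3 groups taken from the sample labels. The authors aligned the reads to GRCm38 with STAR 2.5.2a and Ensembl release 89 annotation and deposited raw counts, whole numbers of reads per gene with no normalization; the counting program, its use of strand, and any filter are not given in the sources used here. GENCODE M21 gave a symbol for 21858 of the 21935 genes in the table, and the 8 members were matched by symbol.

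Genes were kept by filterByExpr (12580), scaled by TMM, and tested in 1 model of the 3 groups with edgeR 4.0.16 (quasi-likelihood test; R 4.3.3), with p adjusted by the Benjamini-Hochberg method over all tested genes and a threshold of 0.05. All adjusted p values are from this test unless another is named. The study used DESeq2. P values rest on 1 library per mouse. Correlations used 100000 permutations of the mice within groups, two-sided, and were adjusted over 28 pairs; log2 CPM had a prior count of 2. Depth ran from 1009593 to 22421506 counts per mouse, and intervals are 95%.

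The members and the lists were chosen with earlier results of these data known. Besides the 8 members, at most 2 genes per list and comparison are named by rule, those with the highest absolute log2 fold change among genes past the threshold with a mean of at least 1 CPM, as well as the 3 genes of at least 5 CPM most correlated with each member. *Fgfr4*, *Ppara*, *Nr3c1*, *Inhbc*, *Apoa5*, *Insr*, *Tie1*, *Hgf*, *Ddit3*, *Atf3*, *Atf4*, and *Cpt1a* were added for their roles after their values were seen, as were values of named genes with the other drug. *Trib3* and *Psat1* were also added after their values were seen, to name all genes of their list that rose. Alternatives were DESeq2 size factors or upper-quartile scaling, no filter or a filter of 10 counts in each mouse, DESeq2 1.42.0 itself, limma-voom (limma 3.58.1), robust estimation, 2 groups per fit, a block for replicate numbers or for adjacent sample numbers, vehicle replicates 5 and 6 left out, and each mouse left out. The balance of short and long genes was added after the data were seen. Scripts were tested on simulated data. Promoter sequences are from RefSeq (GRCm38.p6).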

Additional observations from a re-analysis of the deposited data

Results flagged for a closer look

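In 3 of 24 combinations of member and group, 1 mouse stood apart from the others of its group by Dixon's criterion at the 95% level, which chance gives in about 1 of 20 groups. *Ahsg* was at 6059 CPM in vehicle replicate 10, where the next mouse had 4636 CPM, and this was also the mouse with the highest balance of short to long genes. *Ahsg* was at 7102 CPM in INT-787 replicate 6, where the next mouse had 5698 CPM; without this mouse the log2 fold change of *Ahsg* with INT-787 was 0.25 (adjusted p = 0.097). *Inhbe* was at 169 CPM in vehicle replicate 6, the mouse with the fewest counts, where the next had 133 CPM.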

How the results depend on the processing

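The rise of *Ahsg* and the fall of *Gdf15* with OCA passed under all 12 other settings and in all 28 fits without 1 mouse. The number of members called with OCA was 2 or 3 throughout. With INT-787 2 members were called, against 0 with upper-quartile scaling and 1 each with no filter, with at least 10 counts in every mouse, with the replicate block, and without vehicle replicates 5 and 6 (then *Fgf21*), and 3 with 2 groups per fit (with *Fgf21* added); limma-voom also called 2, but *Fgf21* (adjusted p = 0.037) in place of *Klb* (adjusted p = 0.064). Without 1 mouse the number was 0 to 3. Between the drugs 1 member was called, against 2 with upper-quartile scaling, at least 10 counts, DESeq2, limma-voom, the replicate block, or the balance of short and long genes (*Ahsg* and *Gdf15*), and 0 with 2 groups per fit or the sample number set; without 1 mouse it was 0 to 2. The causes were not tested. Of the pairs of members 3 passed, 2 or 3 under the other settings, and 2 to 5 without 1 mouse. Directions turned only for values that never passed: *Angptl4* with INT-787 was at 0.012 (log2) with the replicate block, 0.026 with the sample number set, and -0.20 to 0.033 without 1 mouse; *Fetub* with OCA ran from -0.015 to 0.155 without 1 mouse; and *Inhbe* between the drugs ran from -0.13 to 0.035 without 1 mouse. Replicate numbers did not meet the criterion for pairs (every same-numbered pair correlated above 0.1): 11 of 27 same-numbered pairs were above 0.1 (r from -0.244 to 0.429; median 0.0772), against 52 of 234 other pairs (median 0.0037), and 9 of 28 mice matched their own number best. For sets of adjacent sample numbers, 13 of 25 pairs within a set were above 0.1 (median 0.105), against 50 of 236 others (median -0.0068). The share above 0.1 was thus higher among same-numbered pairs, and within sets, than among the other pairs. A criterion asked of every pair cannot exclude a weaker pairing, and whether mice were paired was not tested. With the block for replicate numbers *Lect2* was called with OCA (log2 0.55; adjusted p = 0.013) and *Klb* was not with INT-787 (log2 0.37; adjusted p = 0.086), whereas with the sample number set *Klb* passed (log2 0.37; adjusted p = 0.0097).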
